A study of Homo sapiens with 6 samples.

Results

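The let-7 family in its broad sense is described here through 9 mature 5p arms: hsa-let-7a-5p, hsa-let-7b-5p, hsa-let-7c-5p, hsa-let-7d-5p, hsa-let-7e-5p, hsa-let-7f-5p, hsa-let-7g-5p, hsa-let-7i-5p and the related hsa-miR-98-5p, written below without the species prefix. They were taken by name from a table of 787 mature miRNAs, in which all 9 were listed. Small RNA was sequenced from A549, a long-used cell line from a human lung adenocarcinoma, labelled epithelial and known to lack functional SMARCA4. One group of 3 libraries came from cells given the empty plasmid pcDNA4, and the other group of 3 came from cells given pcDNA4-SMARCA4, which encodes an ATPase of the SWI/SNF chromatin remodelling complex, also called BRG1. Plasmids were delivered with Lipofectamine 2000 in both groups and cells were taken 48 h later, so the SMARCA4 cells model a short transient expression from a plasmid in a single line. The labels could not be checked against SMARCA4 itself, whose mRNA was not analysed here.

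let-7 miRNAs are cut from hairpin precursors by Drosha and Dicer, and the 5p strand is the one usually loaded into Argonaute to repress messenger RNAs. The 3p strand, the passenger, is mostly discarded. The family rises as cells differentiate, its processing is blocked by LIN28, and its known targets include RAS genes, HMGA2 and MYC. In lung adenocarcinoma let-7 is best known as a growth-restraining family.

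The mature sequences are shown because they define the family and show how little separates its members. Each is written 5′ to 3′ with the seed, bases 2 to 8, in capitals. They come from RefSeq (GRCh38.p14), where all 9 names were found.
let-7a-5p: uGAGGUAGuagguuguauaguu
let-7b-5p: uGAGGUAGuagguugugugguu
let-7c-5p: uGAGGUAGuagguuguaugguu
let-7d-5p: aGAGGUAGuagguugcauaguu
let-7e-5p: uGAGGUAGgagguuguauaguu
let-7f-5p: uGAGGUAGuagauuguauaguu
let-7g-5p: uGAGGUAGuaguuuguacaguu
let-7i-5p: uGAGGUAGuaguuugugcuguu
miR-98-5p: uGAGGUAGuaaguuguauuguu

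All 9 had 22 bases and the seed GAGGUAG. With positions counted from 1 at the 5′ end and let-7a-5p as the reference, let-7c-5p differed only by A19G, let-7e-5p only by U9G and let-7f-5p only by G12A. let-7b-5p carried A17G and A19G, let-7d-5p U1A and U16C, let-7g-5p G12U and U18C, and miR-98-5p G11A and A19U. let-7i-5p was the most distant from let-7a-5p, with G12U, A17G, U18C and A19U. Over the 36 pairs of members the number of differing bases ranged from 1 to 6, and 4 pairs differed by 1 base. The split of reads between such close members is therefore uncertain, since the sources used here do not say how reads matching several of them were assigned. The same seed was present in 2 further RefSeq miRNAs, miR-4458 and miR-4500, which were not analysed here.

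The hairpins lie at 8 places in the genome, and several mature sequences come from more than one of them. Coordinates are on GRCh38, with host genes from GENCODE 29. let-7a-5p is encoded by MIRLET7A1 (chr9:94175957-94176036, plus strand), MIRLET7A2 (chr11:122146522-122146593, minus strand) and MIRLET7A3 (chr22:46112749-46112822, plus strand). let-7f-5p is encoded by MIRLET7F1 (chr9:94176347-94176433, plus strand), which starts 310 bases after MIRLET7A1 ends, and by MIRLET7F2 (chrX:53557192-53557274, minus strand). MIRLET7D (chr9:94178834-94178920, plus strand) follows MIRLET7F1, and all 3 hairpins of that cluster lie in an intron of the lincRNA gene AL158152.2. MIR98 (chrX:53556223-53556341, minus strand) lies beside MIRLET7F2, both in an intron of HUWE1. MIRLET7B (chr22:46113686-46113768, plus strand) and MIRLET7A3 lie in exons of the lincRNA gene MIRLET7BHG. MIRLET7A2 and MIRLET7C (chr21:16539828-16539911, plus strand) lie in introns of the host transcripts MIR100HG and MIR99AHG. MIRLET7E (chr19:51692786-51692864, plus strand) lies in an intron of SPACA6, and MIRLET7G (chr3:52268278-52268361, minus strand) in an intron of WDR82. MIRLET7I (chr12:62603686-62603769, plus strand) lies in an intron of the lincRNA gene AC048341.1 and overlaps an exon of LINC01465 on the opposite strand.

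One library stood apart. SMARCA4 replicate 2 held 7274329 recovered miRNA reads, 8.33 times the mean of the other 5 libraries, which held between 701885 and 1079944. Values are normalized read counts. A single read was worth 0.422 in SMARCA4 replicate 2, and 1.64 to 2.61 elsewhere. Its deposited values summed to 3073322, against 1661870 to 1835229 in the other libraries. No pair of libraries matched within sampling noise, and the most alike pair was SMARCA4 replicates 1 and 3 (chi-square per degree of freedom 4.34). The results on the family are given with and without SMARCA4 replicate 2.

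In empty vector cells the family spanned a range of levels from let-7a-5p down to let-7c-5p. let-7a-5p stood at 62643 ± 8767 normalized counts (SD, n = 3) and was the 7th most abundant of all listed miRNAs. It was followed by let-7f-5p at 26896 ± 1060, let-7i-5p at 18672 ± 956, let-7e-5p at 7741 ± 318 and let-7g-5p at 4053 ± 356. The scarcer members were miR-98-5p at 3617 ± 850, let-7b-5p at 2970 ± 244, let-7d-5p at 607 ± 43.5 and let-7c-5p at 559 ± 50.1 (SD, n = 3 each). The ranges of neighbours in this order did not overlap from let-7a-5p down to let-7g-5p, nor between let-7b-5p and let-7d-5p. The ranges of let-7g-5p and miR-98-5p, miR-98-5p and let-7b-5p, and let-7d-5p and let-7c-5p overlapped. The first 2 of these pairs kept their order in 2 of 3 libraries, so it was not larger than the spread between libraries. let-7d-5p was above let-7c-5p in all 3 libraries, with a ratio of means of only 1.09. All members have the same length, but adapter ligation favours some small RNA ends over others, so levels of different members are less comparable than those of 1 member between libraries.

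let-7a-5p, the largest member, had 58854, 56408 and 72666 normalized counts across the empty vector libraries, in replicate order here and throughout, and 58274, 318431 and 60498 across the SMARCA4 libraries. SMARCA4 replicates 1 and 3 fell inside the empty vector range, and SMARCA4 replicate 2 was 5.19 times the mean of the other 5 libraries. let-7e-5p and let-7i-5p had the largest such ratios. let-7e-5p was at 7525, 7592 and 8107 with the empty vector and at 6937, 45860 and 6930 with SMARCA4, a ratio of 6.18 for replicate 2. let-7i-5p was at 19723, 18438 and 17854 against 19273, 117822 and 20633, a ratio of 6.14. SMARCA4 replicates 1 and 3 lay just below all empty vector libraries for let-7e-5p and near the top of their range for let-7i-5p. let-7f-5p was at 26654, 28055 and 25977 against 22246, 122789 and 21219, so that SMARCA4 replicates 1 and 3 were below all 3 empty vector libraries while replicate 2 was far above them. miR-98-5p had the same arrangement, at 3867, 2670 and 4315 against 2515, 11488 and 2550.

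The 2 scarcest members were also highest in that library. let-7c-5p was at 503, 574 and 600 with the empty vector and at 601, 2712 and 666 with SMARCA4. As a share of let-7a-5p it ranged only from 0.826% to 1.10% over the 6 libraries, and the part in this of reads from the 1-base neighbour let-7a-5p was not tested. let-7d-5p was at 564, 607 and 651 against 730, 2567 and 583. let-7g-5p, from the WDR82 intron, was at 4210, 3646 and 4304 against 4589, 14862 and 4614. Its SMARCA4 values were all above the empty vector values on the deposited scaling, but replicates 1 and 3 only slightly so. For 8 of the 9 members SMARCA4 replicate 2 was above 2 times the highest of the other 5 libraries, and let-7b-5p was the exception. Of all 637 miRNAs tested 9.11% met that condition in this library, and of the 208 with a mean of at least 100 normalized counts 13.9% did. Since a single library is involved, these ratios carry no test.

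**Figure D1:**
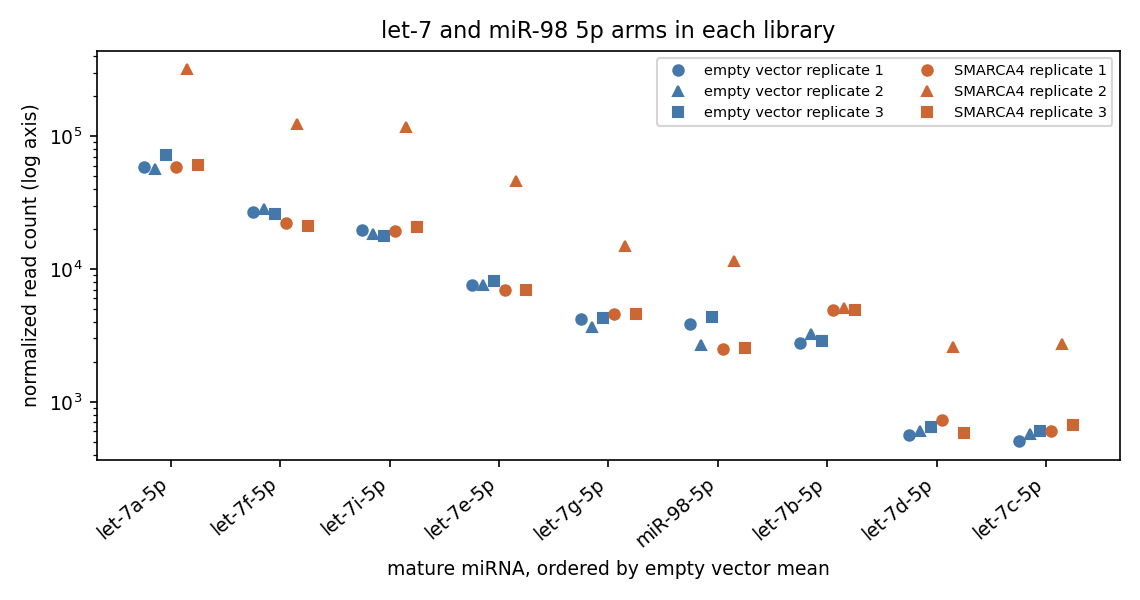
Normalized read counts (log axis) of the 9 5p arms in each of the 6 libraries, ordered by their empty vector mean, with color for the group and marker shape for the replicate. SMARCA4 replicate 2 (orange triangle) lies above 2 times the highest of the other 5 libraries for 8 members. For let-7b-5p the 3 SMARCA4 libraries lie together above the 3 empty vector libraries on this scaling, but not as shares of the library totals.

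**Figure D2:**
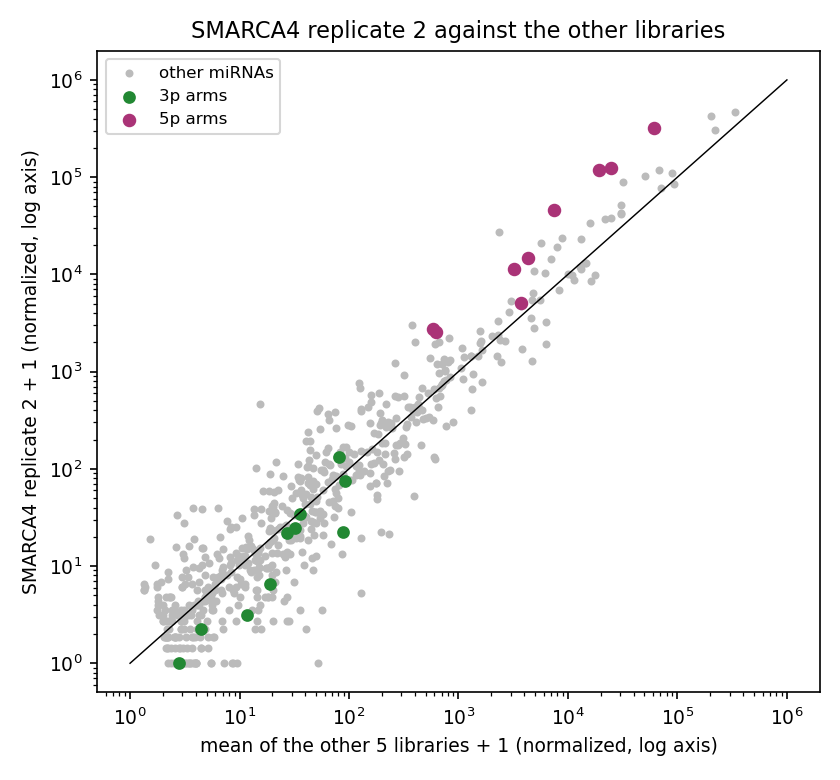
Each point is 1 of the 637 tested miRNAs, with the mean of the other 5 libraries plus 1 on the horizontal axis and SMARCA4 replicate 2 plus 1 on the vertical axis (normalized read counts, both log axes, line at equality). The 5p arms (purple) lie above the line. Of the 3p arms (green) only let-7d-3p lies above it, at 131 against 80.6, and all the others lie below it.

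let-7b-5p differed in pattern from the rest of the family. It stood at 2785, 3246 and 2879 normalized counts in the empty vector libraries and at 4900, 5084 and 4878 in the SMARCA4 libraries, with SDs of 244 and 113. On the deposited scaling the groups did not overlap, and SMARCA4 replicate 2 was only 1.36 times the mean of the other 5 libraries. The log2 fold change was 0.74 (SE 0.24, 95% interval 0.21 to 1.27), which is 1.67-fold, with an unadjusted limma p of 0.0116 and an adjusted p of 0.110. It did not pass the threshold of 0.05 over all miRNAs. Without SMARCA4 replicate 2 the log2 fold change was 0.72 (95% interval 0.30 to 1.14, adjusted p = 0.0543), again short of the threshold. Over 20 alternative analyses the log2 fold change stayed between 0.42 and 0.81 and the adjusted p between 0.0250 and 0.393. It passed in 2 of these, with libraries weighted by their quality (0.0250) and with no filter on low values (0.0261). In these 2 analyses 90 and 23 miRNAs passed in all, against 9 in the main one. The size depends on the scaling, since libraries brought to equal totals gave 0.42 (limma adjusted p = 0.393). So does the lack of overlap. As a share of its library total, SMARCA4 replicate 2 (12033 of 7274329 reads) lay inside the empty vector range. SMARCA4 replicates 1 and 3 lay above that range.

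None of the 9 members passed the test between SMARCA4 and empty vector cells (limma on log2(value + 1), adjusted p under 0.05), where 1.41% of all miRNAs tested did. By edgeR and by DESeq2 on the recovered reads 0 members passed as well, where 1.26% and 7.38% of all miRNAs did. DESeq2 gave an adjusted p for all 9 members but none for 237 of the 637 miRNAs tested. The 7.38% is thus lower than the share among miRNAs that could pass. The numbers with an unadjusted p under 0.05 were 1 by limma, 3 by edgeR and 7 by DESeq2, where 22.6%, 24.0% and 18.1% of all miRNAs tested had one. All 9 passed the filter on low values. Every member had a positive log2 fold change with all 6 libraries, with a median of 0.75, where the median over all miRNAs tested was −0.05 and 48.4% were positive. On the deposited scaling the groups did not overlap for 3 members, let-7b-5p, let-7c-5p and let-7g-5p, all higher with SMARCA4. Of all miRNAs tested 15.9% showed that. As shares of the library totals the groups overlapped for all 3 members. There SMARCA4 replicate 1 lay inside the empty vector range for let-7c-5p (230 of 701885 reads) and for let-7g-5p (1755 reads). Without SMARCA4 replicate 2 the median over the members was 0.10, with 5 positive and 4 negative, and again 0 passed (6.44% of all miRNAs did). An unadjusted p under 0.05 was then found for 1 member, let-7b-5p, and for 26.2% of all miRNAs.

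Most of these estimates moved when SMARCA4 replicate 2 was left out. With all libraries the log2 fold change of let-7a-5p was 0.74 (95% interval −0.60 to 2.08, limma adjusted p = 0.481). Without SMARCA4 replicate 2 it was −0.07 (−0.51 to 0.37, limma adjusted p = 0.850). let-7i-5p went from 0.95 (−0.43 to 2.33) to 0.10 (−0.30 to 0.50), and let-7e-5p from 0.75 (−0.70 to 2.20) to −0.16 (−0.56 to 0.24). let-7f-5p and miR-98-5p moved from 0.53 and 0.24 to −0.31 (−0.70 to 0.09) and −0.49 (−1.03 to 0.06). The estimates for let-7c-5p, let-7d-5p and let-7g-5p, at 0.88, 0.76 and 0.75, became 0.18, 0.11 and 0.19. miR-98-5p was also lower rather than higher when libraries were brought to equal totals, at −0.08.

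**Figure D3:**
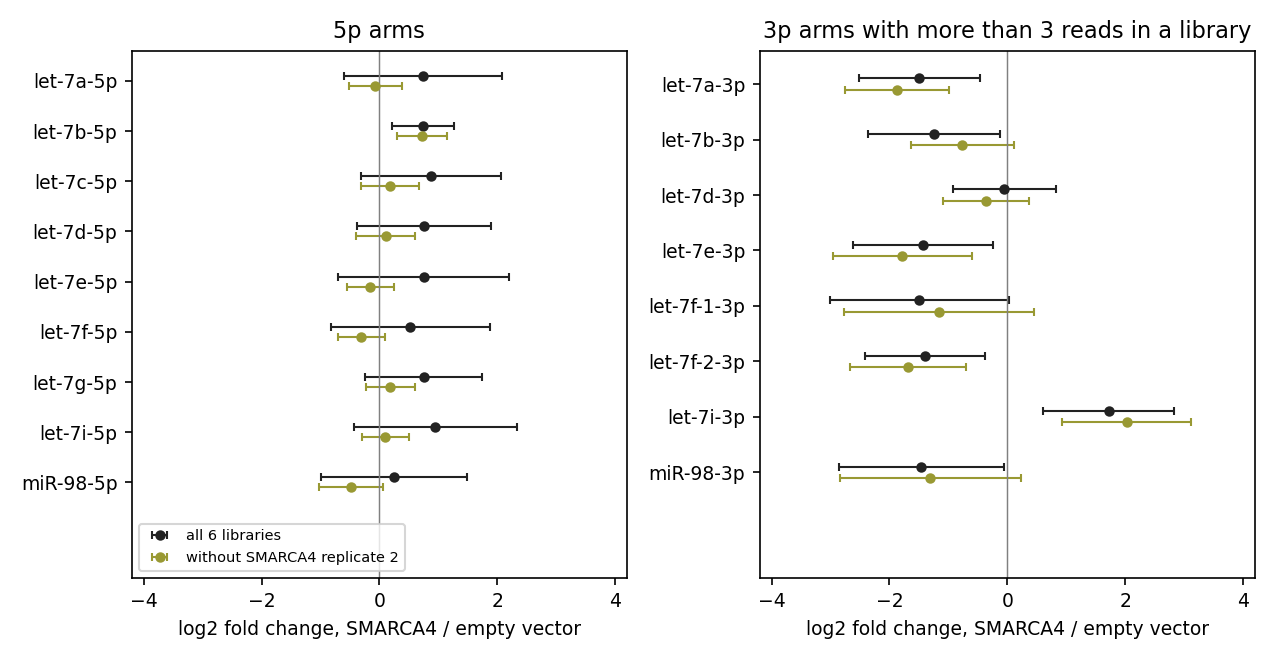
Log2 fold changes of SMARCA4 over empty vector cells with 95% limma intervals for the 9 5p arms (left) and the 8 3p arms with more than 3 reads in some library (right), with all 6 libraries (black) and without SMARCA4 replicate 2 (olive). Without that library 8 of the 5p estimates move to between −0.49 and 0.19 and let-7b-5p stays at 0.72, while 7 of the 3p estimates are negative in both analyses and let-7i-3p is positive in both.

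Shares within a library do not depend on its scaling factor. The 9 members made up 7.50%, 6.83% and 7.78% of the summed values with the empty vector and 6.54%, 20.9% and 6.76% with SMARCA4. The 95% Wilson intervals are narrow at this depth, from 20.8% to 20.9% for SMARCA4 replicate 2 and from 6.48% to 6.60% for SMARCA4 replicate 1. They cover counting error only, since amplified reads without molecular identifiers are not independent molecules. The group values were 7.37% ± 0.489 with the empty vector and 11.4% ± 8.21 with SMARCA4 (SD, n = 3 each). SMARCA4 replicates 1 and 3 were both below the lowest empty vector library. The Wilson interval of SMARCA4 replicate 3 (6.71% to 6.82%) overlapped that of this library, empty vector replicate 2 (6.78% to 6.88%).

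**Figure D4:**
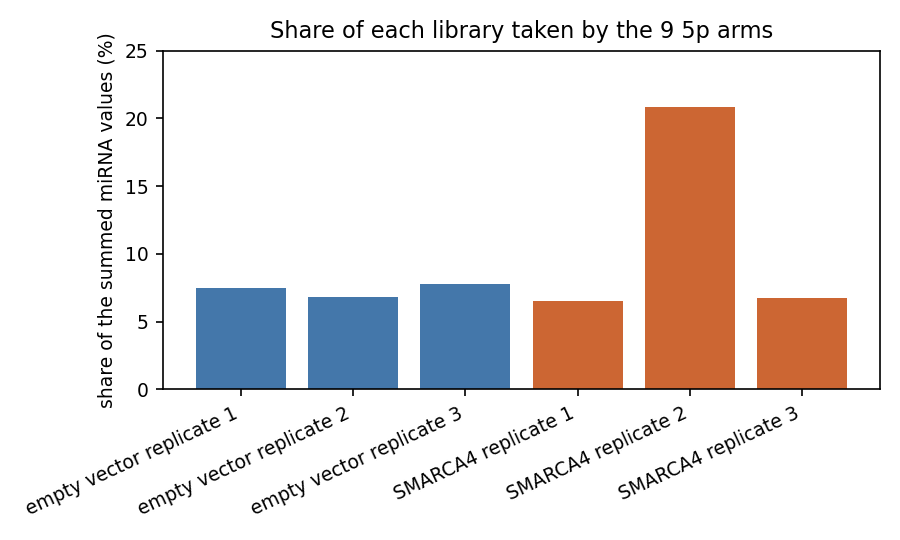
Share of the summed normalized values taken by the 9 5p arms in each library (bars from 0, in percent; blue for empty vector, orange for SMARCA4). SMARCA4 replicate 2 is at 20.9% and the other 5 libraries are between 6.54% and 7.78%.

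Apart from let-7b-5p, the balance between members was steadier than their sum. let-7a-5p made up 48.9% ± 3.50 of the family with the empty vector and 49.2% ± 0.570 with SMARCA4, replicate 2 included. let-7i-5p took 14.7% ± 1.48 of the family with the empty vector, at most 15.8%, and 17.1% ± 1.18 with SMARCA4, at least 16.1% (SD, n = 3 each). miR-98-5p took 3.10%, 2.20% and 3.14% against 2.10%, 1.79% and 2.08%. For these 2 members the groups did not overlap, with let-7i-5p higher and miR-98-5p lower with SMARCA4. The exact two-sided permutation p was 0.1 for each, the smallest that 3 against 3 allows, and 0.45 when adjusted over the 9 members. let-7f-5p was at 21.1% ± 2.12 against 18.3% ± 0.930 (SD, n = 3 each; exact permutation p = 0.2, adjusted p = 0.6).

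Among shares, let-7b-5p again varied most. It took 2.23%, 2.68% and 2.10% of the family in the empty vector libraries, 4.08% and 3.98% in SMARCA4 replicates 1 and 3, and 0.792% in SMARCA4 replicate 2 (95% Wilson interval 0.778% to 0.807%). Relative to let-7a-5p it ranged 5.27-fold over the 6 libraries, with a coefficient of variation of 47.6%. For the other 7 members the highest ratio to let-7a-5p was between 1.29 and 1.82 times the lowest. let-7e-5p, 1 base from let-7a-5p, was the steadiest by coefficient of variation, at 10.0%.

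The 3p arms from the same hairpins were scarce. Of 11 names 10 were listed and tested, with between 94 and 741 reads in all per library, so their values carry more counting error than the 5p arms. Mature sequences of 9 of them were found in RefSeq, and those with the clearest differences are shown here with bases 2 to 8 in capitals, together with let-7d-3p, the arm with the most reads in SMARCA4 replicate 2.
let-7a-3p: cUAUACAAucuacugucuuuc
let-7d-3p: cUAUACGAccugcugccuuucu
let-7e-3p: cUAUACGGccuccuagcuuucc
let-7i-3p: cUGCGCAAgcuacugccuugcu

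In SMARCA4 replicate 2, 0 of the 10 3p arms were above 2 times the highest of the other libraries, where 9.11% of all miRNAs tested were. let-7a-3p was at 136, 85.6 and 167 normalized counts with the empty vector (72, 45 and 102 reads) and at 39.2, 74.4 and 28.3 with SMARCA4 (15, 176 and 12 reads). All 3 SMARCA4 libraries were below all 3 empty vector libraries, with a log2 fold change of −1.49 (SE 0.45, limma adjusted p = 0.109). let-7e-3p was at 41.5, 22.8 and 47.4 against 13.1, 20.7 and 7.08, also without overlap (−1.44, SE 0.53, limma adjusted p = 0.151). let-7f-2-3p, from the HUWE1 intron, was at 33.9, 39.9 and 55.6 against 13.1, 23.7 and 11.8, again without overlap (−1.40, SE 0.45, limma adjusted p = 0.111).

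let-7i-3p went the other way. It was at 24.5, 11.4 and 11.4 normalized counts with the empty vector (13, 6 and 7 reads) and at 68.0, 33.0 and 59.0 with SMARCA4 (26, 78 and 25 reads). The groups did not overlap, and the log2 fold change was 1.72 (SE 0.49, limma adjusted p = 0.0997). let-7d-3p showed no clear difference, at 88.6 ± 14.4 against 89.4 ± 36.7 (SD, n = 3 each; −0.05, 95% interval −0.92 to 0.82), and the sign of its small estimate changed between analyses. let-7b-3p was at 119, 81.8 and 110 against 83.7, 21.5 and 42.5, so the lowest 3p value of let-7b was in SMARCA4 replicate 2.

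Counted over the list, 0 of 10 3p arms passed the test with all 6 libraries by limma, edgeR or DESeq2, where 1.41% of all miRNAs tested passed by limma. The number with an unadjusted p under 0.05 was 7 by limma (22.6% of all miRNAs), 7 by edgeR (24.0%) and 5 by DESeq2 (18.1%), which gave no adjusted p for 3. Of the 10, 9 had a negative log2 fold change (51.6% of all miRNAs), and the median was −1.42. The groups did not overlap for 4 on the lower side (15.2% of all miRNAs) and for 1 on the higher side (15.9%). One of the 4 was let-7c-3p, which had 1, 2 and 2 reads with the empty vector and 0 in all 3 SMARCA4 libraries. It was tested only because of its few empty vector reads, at 1.89, 3.80 and 3.27 normalized counts. The 3 reads that a count of 0 allows are worth more than these in SMARCA4 replicates 1 and 3 (7.84 and 7.08). In the deeper SMARCA4 replicate 2 they are worth less (1.27). Without let-7c-3p 8 of 9 were negative, with a median of −1.40, and 6 by limma, 6 by edgeR and 5 by DESeq2 had an unadjusted p under 0.05.

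Leaving out SMARCA4 replicate 2 brought 2 of the 3p arms past the threshold. let-7a-3p fell, with a log2 fold change of −1.87 (95% interval −2.75 to −0.996, limma adjusted p = 0.0325), and let-7i-3p rose, with 2.03 (0.93 to 3.12, limma adjusted p = 0.0462), where 6.44% of all miRNAs passed. The same 2 arms passed by edgeR without that library (adjusted p = 0.0153 and 0.0206), an analysis added after seeing the data. In it 45 miRNAs passed in all. Both calls rest on few reads: the 2 remaining SMARCA4 libraries held 15 and 12 reads of let-7a-3p and 26 and 25 of let-7i-3p.

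Setting the arms against each other gives a measure within a library that the scaling barely touches. The 5p arm of let-7a outnumbered its 3p arm by 8.75, 9.35 and 8.76 on the log2 scale in the empty vector libraries and by 10.50, 12.04 and 11.01 in the SMARCA4 libraries. SMARCA4 was higher in all 3 libraries, also in replicates 1 and 3, where let-7a-5p itself was at its empty vector level. The ratio was higher with SMARCA4 without overlap for 6 of 9 hairpin names: let-7a, let-7b, let-7c, let-7d, let-7e and let-7f. Among 147 other miRNA names with both arms tested, 17.0% showed that, and the median difference was −0.09. Each of the 6 had an exact two-sided permutation p of 0.1, the smallest possible, and an adjusted p of 0.15 over the 9. The differences between group means ranged from 0.81 for let-7d to 2.84 for let-7c. The value for let-7c, and its place among the 6, rest on its 0 to 2 reads of the 3p arm and on the pseudocount of 1. That arm was tested only because of its 1, 2 and 2 empty vector reads. The lack of overlap for let-7c was therefore largely set by the filter and adds nothing to the count.

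The let-7b hairpin gave 4.54, 5.29 and 4.70 with the empty vector and 5.86, 7.82 and 6.81 with SMARCA4. SMARCA4 was thus higher in all 3 libraries. In SMARCA4 replicate 2 the normalized 5p value stayed near the other SMARCA4 values, while the 3p arm was at its lowest. Among the 9, let-7i alone had a lower mean with SMARCA4: replicates 1 and 3 were at 8.13 and 8.43, below the empty vector libraries at 9.59, 10.54 and 10.49, while replicate 2 was above them at 11.76. Its groups overlapped, as did those of let-7g and miR-98 (exact permutation p = 0.6, 0.2 and 0.3). let-7g-3p had at most 3 reads in any library.

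**Figure D5:**
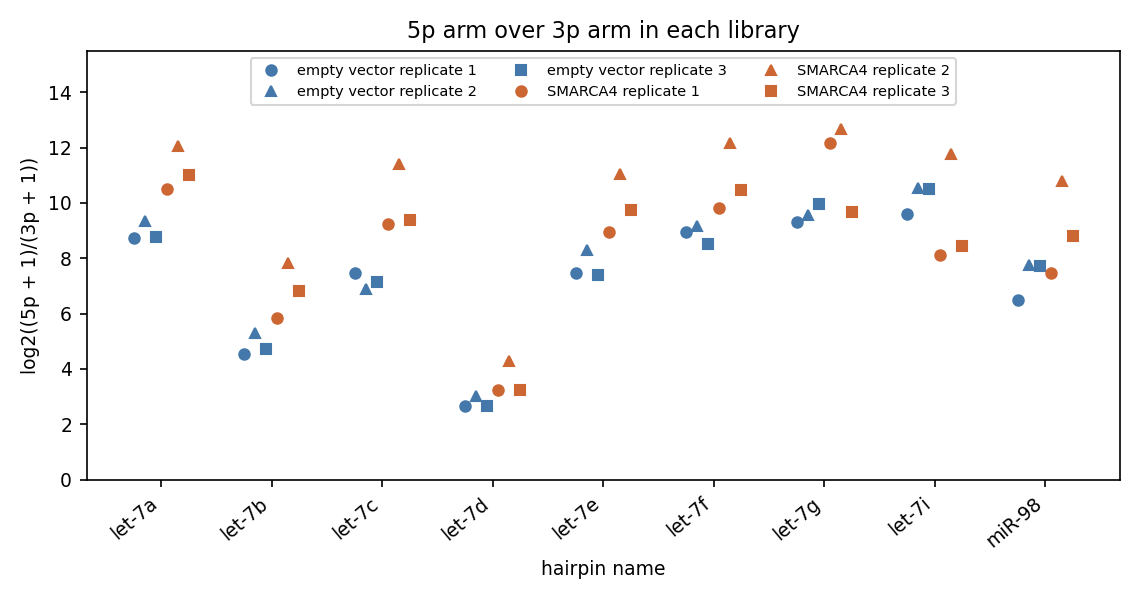
Log2 ratio of the 5p arm to the 3p arm, with 1 added to each value, for 9 hairpin names in each library (let-7f uses the sum of its 2 3p arms). SMARCA4 libraries (orange) lie above all empty vector libraries (blue) for let-7a to let-7f, and SMARCA4 replicate 2 is the highest of the 6 for every name.

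Several let-7 hairpins lie beside genes of miR-99 and miR-100, known to target MTOR, and of miR-125, the relatives of nematode lin-4. MIR99B lies 104 bases and MIR125A 389 bases from MIRLET7E, MIR99A lies 658 bases from MIRLET7C, and MIR100 lies 5635 bases from MIRLET7A2. The 3 most abundant partners are given first. miR-125a-5p was at 18724, 9939 and 23202 normalized counts with the empty vector and at 18426, 9847 and 18357 with SMARCA4, where replicate 2 was the lowest. miR-99b-5p was at 11202, 5424 and 14203 against 17113, 11801 and 16093, and miR-100-5p at 12667, 4810 and 19978 against 13343, 11450 and 15002. For these 2 partners replicate 2 was the lowest SMARCA4 library. For all 3 partners replicate 2 was also the lowest empty vector library. let-7e-5p, between MIR99B and MIR125A, was 6.18 times the mean of the other libraries in SMARCA4 replicate 2. One partner did exceed 2 times the highest of the other libraries in SMARCA4 replicate 2: miR-99b-3p, from the MIR99B hairpin, at 483 against at most 198 (9.11% of all miRNAs tested did).

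Of 13 cluster partners 11 were listed and tested, and 0 passed by limma, edgeR or DESeq2 (1.41%, 1.26% and 7.38% of all miRNAs did). DESeq2 gave no adjusted p for 1 of the partners and for 237 of all miRNAs tested. An unadjusted p under 0.05 was found for 1 by limma, 1 by edgeR and 0 by DESeq2, below the shares over all miRNAs of 22.6%, 24.0% and 18.1%. Their median log2 fold change was 0.20, with 7 positive and 4 negative. Leaving out SMARCA4 replicate 2 brought 1 past the threshold: miR-100-3p fell, at 730, 759 and 979 with the empty vector against 403 and 437 in SMARCA4 replicates 1 and 3 (log2 fold change −0.96, limma adjusted p = 0.0462). In that analysis 6.44% of all miRNAs passed, so 1 of 11 is near the background. With that library, at 685, its adjusted p was 0.201.

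Among 199 other miRNAs with a mean of at least 100 normalized counts, the profiles nearest to the summed family over the 6 libraries were those of miR-493-5p, miR-9-5p, miR-196a-5p, miR-6765-3p and miR-25-3p. Likeness was the mean absolute difference between centred log2 profiles, which was 0.20, 0.24, 0.28, 0.34 and 0.35 for these 5. Each was highest in SMARCA4 replicate 2, which the choice made nearly certain, since the family sum was itself far highest there. miR-196a-5p, encoded in the HOX clusters, was at 322, 342 and 342 with the empty vector and at 400, 2982 and 467 with SMARCA4. miR-25-3p, of the miR-106b cluster, was at 6400, 6694 and 7378 against 9491, 18920 and 9798. By the same measure let-7a-5p was at 0.05 from the family sum, of which it made up 48.9% with the empty vector. miR-98-5p was at 0.27 and let-7b-5p at 0.59, so let-7b-5p was farther from the family than these 5 miRNAs from outside it.

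Markers of other cells were measured beside these results. Of 8 blood cell and serum miRNAs 3 were listed, and their summed level was 14458 normalized counts in SMARCA4 replicate 2 against 5621 to 8030 in the other 5 libraries, nearly all of it miR-486-5p. By group it ranged from 5621 to 7213 with the empty vector and from 7962 to 14458 with SMARCA4. The other 2 listed blood miRNAs were lower in SMARCA4 replicate 2 than the mean of the other 5 libraries. miR-142-5p was at 30.8 against 39.5 and miR-150-5p at 0.845 against 1.23. Of 3 muscle miRNAs the 2 listed, miR-1-3p and miR-133a-3p, were at 0 in all 6 libraries. Of 3 neuron miRNAs 2 were listed, and their sum ranged from 1080 to 1791 with the empty vector and from 1785 to 1964 with SMARCA4, replicate 2 being at 1881. Most of that sum was miR-128-3p. The other neuron miRNA, miR-9-5p, was at 427 in SMARCA4 replicate 2 and at 140 to 165 in the other 5 libraries, 2.58 times the highest of them. The defining neuron miRNA miR-124-3p was not analysed here. The liver miRNA miR-122-5p was not analysed here. Of 7 epithelial miRNAs 6 were listed, and their sum ranged from 356 to 677 with the empty vector and from 425 to 623 with SMARCA4. The members of this list did not move together. miR-141-3p and miR-203a-3p rose, with log2 fold changes of 2.55 and 2.83 (limma adjusted p = 0.0124 for each). miR-200b-3p, the most abundant of the list, was at 458, 285 and 523 with the empty vector and at 186, 140 and 243 with SMARCA4. All 3 SMARCA4 values were the lower ones, with a log2 fold change of −1.14 and a limma adjusted p of 0.109. Its adjusted p was 0.0490 by DESeq2 and 0.0257 by limma with array weights, analyses that called 47 and 90 miRNAs in all. miR-200c-3p, a defining epithelial miRNA, was at no more than 14.2 in any library. The part of depth or of other cells in the level of let-7 in SMARCA4 replicate 2 was not tested.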

How the data were processed

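RNA was total RNA, and libraries used Illumina's TruSeq kit for small RNA, per the labels' protocols. bcl2fastq 2.18.0.12 and GRCh38 are named, per the submitters' processing notes. The sources used here do not state the trimmer, aligner, counter or annotation. The deposited signal is a scaled read count, with 1 scaling factor for each library. The table's name speaks of TMM. Whole reads were recovered for 100% of values (relative tolerance 1e-06), 701885 to 7274329 per library. A count of 0 allows up to 3 reads.

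Titles gave groups and replicate numbers, and the series' design calls replicates biologically independent. limma 3.58.1 (R 4.3.3, mean-variance trend) was fitted on log2(value + 1) over the 637 miRNAs with a mean of at least 1, with Benjamini-Hochberg adjustment at 0.05. This scale understates changes of scarce miRNAs. The script was tested on simulated data. Recovered reads were tested with edgeR 4.0.16 (quasi-likelihood) and with DESeq2 1.42.0. Other alternatives were the pseudocount, filter, scaling, array weights, a replicate block and leaving out each library. Shares and arm ratios were compared with exact permutation tests.

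The members and lists were chosen with earlier results of these data known. All members are named. Any 3p arm or cluster partner tested could be named, and the 3 most abundant of each list and those called are described, as are the 5 nearest profiles among miRNAs with a mean of at least 100. Arm ratios of all other names with both arms tested gave their background.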

Additional observations from a re-analysis of the deposited data

How the results depend on the processing

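No member passed in 18 of 20 alternative analyses, and 1 (let-7b-5p) passed with array weights and 1 with no filter. SMARCA4 replicate 2 decided 4 directions. Over the 6 analyses that left out 1 library, log2 fold changes ranged from −0.068 to 1.16 for let-7a-5p, from −0.16 to 1.20 for let-7e-5p, from −0.31 to 0.96 for let-7f-5p and from −0.49 to 0.61 for miR-98-5p, each lowest without that library. edgeR without it gave −0.079, −0.16, −0.31 and −0.52. With array weights let-7f-5p was at −0.073 and miR-98-5p at −0.41. Rescaling libraries to the same total moved the median of all miRNAs by −0.26 and gave −0.082 for miR-98-5p and −0.020 for miR-100-5p. Rescaling on all other miRNAs moved that median by −0.21 and gave −0.014 for miR-98-5p. Quantile normalization gave −7.89e-04 for miR-100-5p. edgeR gave 0.024 and DESeq2 0.024 for let-7d-3p. miR-125a-5p was at 0.086 by edgeR without SMARCA4 replicate 2. With 1 library left out, log2 fold changes ranged from −0.36 to 0.18 for let-7d-3p, from −0.27 to 0.76 for miR-100-5p and from −0.48 to 0.18 for miR-125a-5p.

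The 3p arms called numbered 1 with no filter (let-7c-3p), 4 with array weights, 2 by edgeR without SMARCA4 replicate 2 and 0 to 2 with 1 library left out. Cluster partners called numbered 1 with array weights, 1 by edgeR without SMARCA4 replicate 2 and 0 to 1 with 1 library left out. All miRNAs called numbered 23 with no filter, 16 rescaled on all other miRNAs, 90 with array weights, 47 by DESeq2, 45 by edgeR without SMARCA4 replicate 2 and 0 to 41 with 1 library left out, against 9. The cause of these differences was not tested. The difference in family share was 4.02 percentage points, 8.72 without the 10 most abundant other miRNAs in the denominator, and between −0.72 and 6.45 with 1 library left out, the lowest without SMARCA4 replicate 2.

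Same-numbered libraries correlated at 0.07, 0.09 and 0.01 in their deviations from group means. All were under the threshold of 0.1, so the numbers were not taken as pairs. The highest correlations with a library of another number were 0.05, −0.01 and 0.05. For replicates 1 and 2 the same-number value was the higher one. With the replicate block 0 members, 0 3p arms, 0 cluster partners and 13 miRNAs in all were called, with a median log2 fold change of 0.75 over the members. In that fit let-7b-5p had an adjusted p of 0.0846. Depth limits the 3p arms most, since a count of 0 allows up to 3 reads.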
